A study of Homo sapiens with 12 samples.

Results

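The 43 genes described here are interferon-stimulated antiviral genes outside the IFIT, OAS, GBP, APOL, PARP, SLFN, TRIM and ISG15-conjugation families, from the dynamin-like GTPases MX1 and MX2 to the nuclear body protein PML. They were taken by symbol from the deposited count table, and all 43 were among its 58735 gene identifiers. The cells were macrophages of THP-1, an established line from a human monocytic leukaemia, and all 12 libraries came from cells stimulated with lipopolysaccharide (LPS) for 4 h. Before LPS, 6 had received 30 nM of a miR-122-5p mimic and 6 the same dose of a control miRNA mimic, both for 24 h with RNAimax. No library from unstimulated or untransfected cells was analysed here, and the comparison is of mimic against control mimic under LPS. Whether the 6 libraries of a group are separate cultures is not said in the labels, and every p-value is relative to a spread among libraries that could be purely technical. In bulk RNA, fewer cells that express a gene and less of its RNA per cell cannot be told apart.

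Lipopolysaccharide sensed by TLR4 makes macrophages secrete interferon beta, which binds its receptor on the same and neighbouring cells. The receptor's kinases JAK1 and TYK2 then activate the transcription factor complex ISGF3, which holds STAT2 and IRF9. ISGF3 binds the interferon-stimulated response element, a DNA motif built on a repeated GAAA core, and switches on genes that block virus entry, replication, assembly or release. A microRNA such as miR-122-5p pairs through its seed, bases 2 to 8, with matching sites in 3′ untranslated regions and lowers the output of those transcripts. Its mature sequence, at chr18:58451088-58451109 on the + strand of GRCh38.p14 in the RefSeq table, is printed with the seed in capitals because the target site search below rests on it.
hsa-miR-122-5p: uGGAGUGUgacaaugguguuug

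The promoters of these genes showed the GAAA repeat directly. In the RefSeq promoter table (GRCh38.p14), windows of 300 bases, from 250 before to 50 after an annotated transcription start, were matched by symbol for 37 of the 43 genes. The motif GAAA, any 2 bases, GAAA, searched on both strands and allowed to overlap itself, was found in at least 1 window of 19 of the 37 genes (51.4%). It was in 3.57% of all 35116 promoter windows, and of the 10640 tested genes with a window 4.19% had it in at least 1. A gene can have several windows, one for each annotated start, so the share per gene is the one to set beside 51.4%. A match is only a match of letters and was not shown to be bound.

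The following 30-base stretches hold the GAAA repeat match nearest the annotated start for 10 of the 19 genes. They do not cover every role described below, and the protein turnover and galectin genes with a match are absent. The bases between the GAAA repeats are CC or CT in all 10, read on the strand with GAAA. Other bases lie there in the nearest matches of PLSCR1, IFI27, NMI, IFI44L, LAP3, LGALS9 and LGALS3BP, which are not printed. Capitals mark the matched bases, and each sequence reads in the direction of transcription.
MX1 (chr21:41420559-41420588, + strand): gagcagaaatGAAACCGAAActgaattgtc
ISG20 (chr15:88638937-88638966, + strand): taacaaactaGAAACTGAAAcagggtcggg
IFITM1 (chr11:314024-314053, + strand): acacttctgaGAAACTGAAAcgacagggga
IFITM3 (chr11:320876-320905, - strand): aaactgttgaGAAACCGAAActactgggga
BST2 (chr19:17405735-17405764, - strand): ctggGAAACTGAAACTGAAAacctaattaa
RTP4 (chr3:187368357-187368386, + strand): accgaacaccGAAACTGAAActgtttgtct
DDX60 (chr4:168318786-168318815, - strand): gaggagaaagGAAACCGAAActcccgccgg
DDX60L (chr4:168480523-168480552, - strand): gtggagaaaaGAAACCGAAActaactccct
IFI44 (chr1:78649761-78649790, + strand): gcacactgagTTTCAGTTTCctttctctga
EPSTI1 (chr13:42992272-42992301, - strand): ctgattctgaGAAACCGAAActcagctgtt

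RSAD2 and IFI6 had the largest and the smallest fall among the 19 genes, and their whole windows are printed for that reason. The RSAD2 window (chr2:6877527-6877826, + strand) held 1 match, in the opposite orientation, and the IFI6 window (chr1:27672143-27672442, - strand) held 3.
RSAD2: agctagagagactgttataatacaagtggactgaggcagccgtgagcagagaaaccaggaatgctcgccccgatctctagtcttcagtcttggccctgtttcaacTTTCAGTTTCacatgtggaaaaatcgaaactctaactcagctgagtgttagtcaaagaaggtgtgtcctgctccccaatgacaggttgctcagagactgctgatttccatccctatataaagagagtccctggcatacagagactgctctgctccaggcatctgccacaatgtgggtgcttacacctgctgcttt
IFI6: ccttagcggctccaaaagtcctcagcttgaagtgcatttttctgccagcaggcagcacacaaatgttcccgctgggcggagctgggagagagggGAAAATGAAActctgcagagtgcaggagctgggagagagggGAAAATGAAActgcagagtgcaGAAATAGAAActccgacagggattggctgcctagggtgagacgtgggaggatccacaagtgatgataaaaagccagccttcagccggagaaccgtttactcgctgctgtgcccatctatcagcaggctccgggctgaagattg

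**Figure D1:**
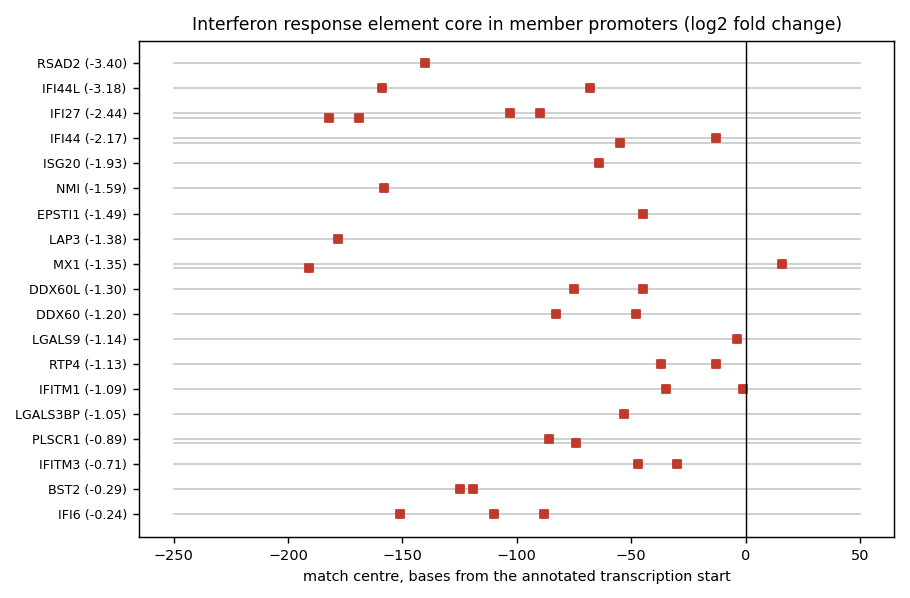
Positions of matches to the GAAA repeat (GAAA, any 2 bases, GAAA) (squares, at the centre of the match) in the promoter windows of the 19 genes that had one, in bases from the annotated transcription start, ordered from the largest fall to the smallest with each gene's log2 fold change in brackets; a grey line is 1 window, and a gene with matches in several windows has a line for each. RSAD2, with the largest fall, has 1 match, and IFI6, with the smallest, has 3.

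Libraries held 29473750 to 39468157 gene counts. Some library measures touch the values below. The slope of each library's log2 CPM on transcript GC content, taken relative to the mean of the 12, per 10 percentage points, averaged -0.146 ± 0.124 (SD) in control libraries and 0.146 ± 0.0658 in miR-122-5p libraries (exact permutation test, two-sided, p = 0.00216, which is the lower limit for 6 against 6), so each gene was also fitted with GC terms: offsets for GC content and length, or the slope as a covariate. Control libraries 1 and 6 stood apart on principal components, and without both of them 40 of the 43 genes were called lower. Over all 15471 tested genes 26.2% were called lower and 24.3% higher, and with the GC slope covariate 1887 and 1118 genes. Of 13 macrophage markers 11 passed the low-count filter. With miR-122-5p 7 were called lower and 2 higher (median log2 fold change -0.36), and 7 and 0 with the GC slope covariate. MSR1 fell most, from 103 ± 7.69 CPM (SD, n = 6) to 21.2 ± 4.29 CPM, and CD163, AIF1, CD14, FCER1G, CSF1R and ITGAX also fell, while TYROBP and ITGAM rose without GC terms. The summed level, 2943 to 3397 CPM with miR-122-5p and 2949 to 3412 CPM with the control mimic, is carried by the abundant genes, TYROBP above all, and does not show these falls. MRC1 was at most 0.437 CPM and CD68, 85.8% of whose exons other genes overlap, at most 0.502 CPM. Of 5 T cell markers only TRAC was tested, at 19.9 to 28.9 CPM with miR-122-5p and 19.2 to 23.9 CPM with the control mimic, and it was called higher (0.25 ± 0.10, adjusted p = 0.0384) but not with the GC slope covariate (-0.06), while CD3D, CD3E and CD2 had no count in any library. Of 5 epithelial markers EPCAM had no count, and the summed level was at most 1.06 CPM. The summed level of 5 hepatocyte markers was 90.1 to 115 CPM with miR-122-5p and 80.7 to 106 CPM with the control mimic. Most of it was SERPINA1, which was not called (0.10 ± 0.09, log2 fold change and SE). APOA1 was called higher (0.78 ± 0.10), and ALB was at most 0.312 CPM. The part of these markers in the results was not tested. The summed level of 5 B cell markers was 5.77 to 7.92 CPM with miR-122-5p and 22.2 to 28.9 CPM with the control mimic. Most of this difference was PAX5 (-3.36 ± 0.13, log2 fold change and SE), while MS4A1 was at most 0.175 CPM in any library; the part of PAX5-expressing cells in the results was not tested.

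Nearly the whole group was lower with miR-122-5p. With edgeR's quasi-likelihood test, Benjamini-Hochberg adjusted across 15471 genes, 42 of the 43 genes fell, 0 rose and 1, IFI30, was not called. Over all tested genes 26.2% were called lower and 24.3% higher, 50.5% in all. All adjusted p-values below are from this test unless an exact test is named. The median log2 fold change of the 43 (miR-122-5p over control mimic) was -1.30, and that of all tested genes 0.01. For 38 genes every miR-122-5p library was below every control library, against 16.1% of all tested genes, and for 0 the reverse held, against 13.4%. Falls of at least 2-fold were found for 32 genes (5.55% of all tested genes), of at least 4-fold for 7 (1.2%) and of at least 8-fold for 4 (0.446%). All 43 passed the low-count filter, and 42 had at least 10 counts in each of the 12 libraries. SP140 was the exception: with 5 to 25 counts under miR-122-5p and 17 to 64 under the control mimic it passed mainly through the control group. Without SP140, 41 of 42 genes were called lower.

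**Figure D2:**
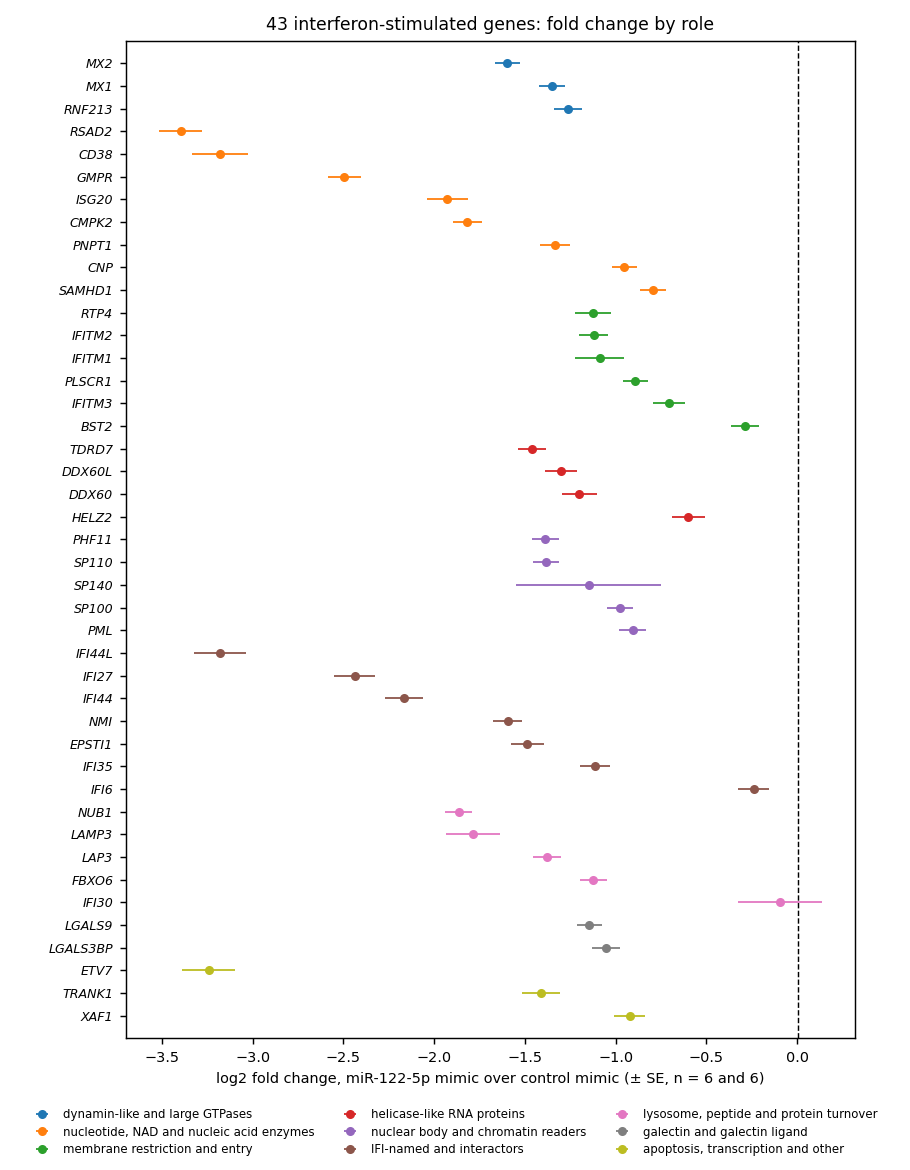
Log2 fold change of each of the 43 genes (points; bars, standard error; 6 libraries a group), grouped and coloured by role and ordered by size within a role; the dashed line is the median of all tested genes, 0.01. RSAD2, ETV7, CD38 and IFI44L lie below -3, and IFI6, BST2 and IFI30 lie nearest the dashed line.

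The dynamin-like GTPases MX1 and MX2 form rings that trap viral nucleocapsids, MX1 against influenza virus and MX2 against the nuclear import of HIV. MX1 (chromosome 21, 41420304 to 41459214, hg38) ranged from 333 to 418 CPM (the count relative to the library total, scaled for composition) with miR-122-5p, with a median of 374, and from 877 to 1023 CPM with the control mimic, with a median of 970. The groups were far apart, and MX1 fell by 1.35 ± 0.07 on the log2 scale (SE, adjusted p = 1.39e-12). MX2, its neighbour, ranged from 169 to 206 CPM (median 184) with miR-122-5p and from 531 to 606 CPM (median 557) with the control mimic. Its fall was larger than that of MX1 (log2 fold change -1.60 ± 0.07, adjusted p = 9.64e-14). The third large nucleotide-hydrolysing protein, the ubiquitin ligase RNF213, fell by 1.26 ± 0.08. None of the 3 had overlapping groups.

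Enzymes of nucleotides, NAD and nucleic acids included some of the largest falls, and 8 of 8 were called lower without overlap (median -1.87). RSAD2, or viperin, turns CTP into a chain terminator of viral RNA synthesis. It ranged from 60.4 to 99.7 CPM with miR-122-5p (median 70.2) and from 686 to 932 CPM with the control mimic (median 774). Control libraries thus held about 10.5 times the RSAD2 level of miR-122-5p libraries (log2 fold change -3.40 ± 0.12, adjusted p = 3.84e-15, the lowest of the group). CD38, an ectoenzyme that breaks down NAD, fell by 3.18 ± 0.15, from 76.4 ± 11.2 CPM (SD, n = 6) to 8.42 ± 2.58 CPM. GMPR, which converts GMP to IMP, fell by 2.50 ± 0.09, from 49.4 ± 2.14 to 8.76 ± 1.29 CPM. Its 6 control libraries lay between 47.6 and 52.8 CPM.

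The exonuclease ISG20, which degrades single-stranded RNA, fell by 1.93 ± 0.11, and CMPK2, the mitochondrial UMP-CMP kinase, by 1.82 ± 0.08. PNPT1, which degrades RNA in mitochondria, fell by 1.33 ± 0.08. The smallest falls of this role were those of CNP, a cyclic nucleotide phosphodiesterase known to hinder HIV assembly (-0.95 ± 0.07), and SAMHD1, which removes the dNTPs that retroviruses need for reverse transcription (-0.80 ± 0.07). SAMHD1 exons overlap those of TLDC2 over 10.3% of their length.

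Proteins that act at membranes fell less. All 6 were called lower (median -0.99), and the groups overlapped for 2 of them, IFITM1 and BST2. RTP4, a chaperone of membrane receptors, had the largest fall of this role, from 48.5 to 66.4 CPM in control libraries (median 53.3) to 21.4 to 30.2 CPM with miR-122-5p (median 25.0; -1.13 ± 0.10, adjusted p = 4.91e-09). IFITM3, which blocks the fusion of virus and endosome membranes, was the most abundant of this role per length of exon. It ranged from 626 to 806 CPM with miR-122-5p (median 725) and from 855 to 1329 CPM with the control mimic (median 1223). The groups did not overlap, and IFITM3 fell by 0.71 ± 0.09 (adjusted p = 9.65e-07). IFITM1 and IFITM2, of the same family, fell by 1.09 ± 0.14 and 1.12 ± 0.08. Control library 1 held only 131 CPM of IFITM1, while the other control libraries held 242 to 292 CPM and the miR-122-5p libraries 101 to 140 CPM. It was also the lowest control library for IFITM3, and it had the most negative GC slope of all 12 libraries, -0.318. With the GC slope covariate the log2 fold changes of IFITM1 and IFITM3 were larger, -1.66 and -1.07. Near-identical stretches shared with one another or with AC023157.1 cover 44.7% of the longest transcript of IFITM1, 13.3% of IFITM2 and 49.8% of IFITM3, and IFITM2 overlaps 32.5% of the IFITM1 exons, so reads can be lost or moved between them.

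BST2, or tetherin, holds budding virions at the cell surface. It ranged from 610 to 843 CPM with miR-122-5p (median 661) and from 764 to 919 CPM with the control mimic (median 843), with overlap. Its fall was small, 0.29 ± 0.08 (adjusted p = 0.00397). With GC content and length offsets it fell by 0.55. The call was lost with the GC slope covariate (-0.38, adjusted p = 0.0528), and over all settings its adjusted p ran from 6.52e-07 to 0.0528. PLSCR1, a phospholipid scramblase with antiviral action, fell by 0.89 ± 0.07.

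The role of helicase-like RNA proteins also holds TDRD7, which is not helicase-like. Its genes fell in 4 of 4 cases without overlap (median -1.25). TDRD7, a tudor-domain protein known to restrain autophagy that some viruses use, ranged from 38.1 to 47.1 CPM with miR-122-5p (median 43.2) and from 108 to 137 CPM with the control mimic (median 115; -1.46 ± 0.08, adjusted p = 1.84e-12). DDX60 and DDX60L, which resemble the RNA sensor helicases, had log2 fold changes of -1.20 ± 0.10 and -1.30 ± 0.09. With the GC slope covariate these were -0.78 and -0.87. HELZ2, a helicase with zinc fingers, was the most abundant of this role per length. It ranged from 333 to 415 CPM with miR-122-5p (median 356) and from 446 to 684 CPM with the control mimic (median 550), and it fell by 0.60 ± 0.09 (adjusted p = 1.36e-05). HELZ2 has the most GC-rich transcript of the 43 genes, 67.2%, and with GC content and length offsets it fell by 1.13.

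Of the nuclear body and chromatin reader genes, the 4 besides SP140 fell without overlap, with log2 fold changes of -1.39 to -0.91. PML and SP100 build the nuclear bodies in which many viral genomes are silenced. They fell by 0.91 ± 0.08 and 0.98 ± 0.07. PHF11, a PHD finger protein, ranged from 21.3 to 27.5 CPM with miR-122-5p (median 24.8) and from 55.9 to 67.7 CPM with the control mimic (median 65.6; -1.39 ± 0.08, adjusted p = 3.02e-12). SP110, a speckled protein of the SP100 family, ranged from 56.1 to 68.8 CPM with miR-122-5p (median 58.9) and from 145 to 176 CPM with the control mimic (median 155; -1.38 ± 0.07, adjusted p = 2.01e-12). Both were clear of overlap by a wide margin. The antisense gene AC009950.1 and SP140 overlap 20.9% of the SP110 exons. AC009950.1 held 15 to 106 counts a library, and SP110 held 1707 to 6590. Reads in the shared parts may have been assigned to none of these genes, which was not tested. SP140 itself was at most 1.75 CPM in any library. Its call (-1.15 ± 0.40, adjusted p = 0.0212) was lost with the GC slope covariate (-0.27, adjusted p = 0.846). It was also lost without library 2 (-0.98, adjusted p = 0.0544) or 5 (-1.02, adjusted p = 0.0536) of the miR-122-5p group and without control library 6 (-0.87, adjusted p = 0.0781), within a range of adjusted p from 0.00995 to 0.846.

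Among genes with IFI names and their partners 7 of 7 were called lower (median -1.59), with the widest range of the roles. IFI44L, a cytoplasmic protein induced by interferon, ranged from 4.91 to 9.19 CPM with miR-122-5p (median 6.30) and from 49.5 to 73.2 CPM with the control mimic (median 61.3). The lowest control library was thus far above the highest miR-122-5p library (-3.18 ± 0.14, adjusted p = 1.36e-13). IFI27, a small mitochondrial protein, fell by 2.44 ± 0.11 and IFI44, the paralogue of IFI44L, by 2.17 ± 0.10. NMI and IFI35 bind each other and are released by macrophages as danger signals. They fell by 1.59 ± 0.08 and 1.11 ± 0.08. EPSTI1, first described in epithelial-stromal interaction, fell by 1.49 ± 0.09.

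IFI6, a protein of the endoplasmic reticulum that protects against flaviviruses, was by far the most abundant of the 43 genes per length of exon (2566 CPM per kb over the 12 libraries, above 99.9% of tested genes) and one of the least changed. It ranged from 1733 to 2568 CPM with miR-122-5p (median 1962) and from 2162 to 2606 CPM with the control mimic (median 2442). The groups overlapped, and IFI6 fell by 0.24 ± 0.08 (adjusted p = 0.0212). With GC content and length offsets it fell by 0.48. The call was lost with the GC slope covariate (-0.38, adjusted p = 0.0792). It was also lost when library 3 (-0.20, adjusted p = 0.0668), 5 (-0.20, adjusted p = 0.0689) or 6 (-0.19, adjusted p = 0.0667) of the miR-122-5p group was left out, within a range of adjusted p from 1.16e-05 to 0.0792. The next most abundant genes per length, IFITM3 (699 CPM per kb) and BST2 (683 CPM per kb), were also among those with small falls, but IFI35 (319 CPM per kb) and LAP3 (153 CPM per kb) fell by more than 1 on the log2 scale. Across the 43 genes the log2 level per length in control libraries and the log2 fold change had a Spearman correlation of 0.19 (Pearson 0.13). These genes share libraries and are not independent replicates. Without the low-count genes SP140 and IFI30 the correlation was 0.30 (Pearson 0.34, 41 genes), a weak tendency of more abundant genes to fall less. The control level also enters the fold change, so these measures are not independent of each other.

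**Figure D3:**
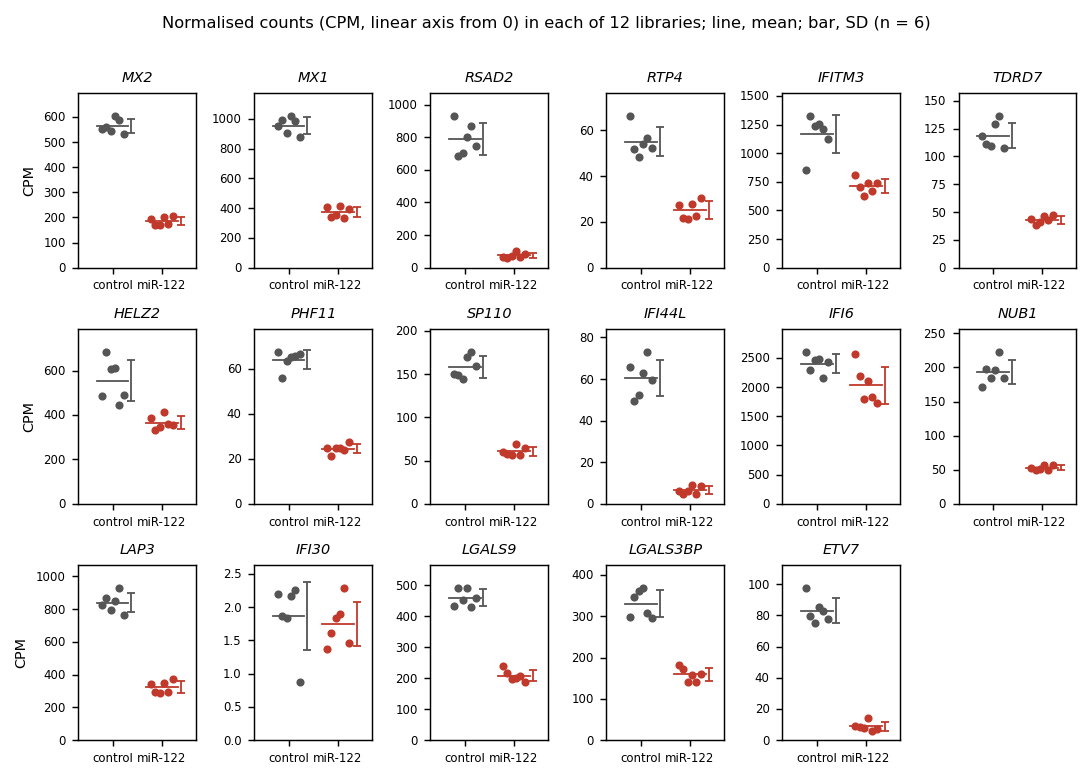
Normalised counts (CPM, linear axes from 0) of 17 genes in the 6 control and 6 miR-122-5p libraries (points), with the group mean (line) and SD (bar); they are the gene of largest change and the gene of highest level per length in each role, and the 1 gene not called. Groups are apart for 15 of the 17, and overlap for IFI6 and IFI30.

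Lysosomal, peptidase and protein turnover genes were lower for 4 of 5. NUB1, which lowers the ubiquitin-like protein NEDD8, ranged from 49.0 to 57.5 CPM with miR-122-5p (median 51.8) and from 171 to 223 CPM with the control mimic (median 191). The spread within each group was narrow, and NUB1 fell by 1.86 ± 0.07 (adjusted p = 2.55e-14). LAMP3, a lysosomal membrane protein of maturing dendritic cells, fell by 1.79 ± 0.15. LAP3, a leucine aminopeptidase, ranged from 290 to 371 CPM with miR-122-5p (median 318) and from 762 to 929 CPM with the control mimic (median 839; -1.38 ± 0.08, adjusted p = 3.92e-12). FBXO6, an F-box protein that recognises misfolded glycoproteins, fell by 1.12 ± 0.08.

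IFI30, the lysosomal thiol reductase that prepares proteins for MHC class II presentation, was the 1 gene not called. It ranged from 1.37 to 2.29 CPM with miR-122-5p (median 1.72) and from 0.875 to 2.25 CPM with the control mimic (median 2.02; -0.10 ± 0.23, adjusted p = 0.758, between 0.333 and 0.930 over all settings). Its level per length of exon was above that of only 28.8% of tested genes. In GENCODE 29 the gene AC007192.1 (chromosome 19, 18153158 to 18178117) spans IFI30 and PIK3R2 on the same strand and overlaps 40.2% of the IFI30 exons and 87.2% of those of PIK3R2. AC007192.1 had 0 counts in all libraries and PIK3R2 1 count in all 12 together. Reads in shared exons may not have been assigned to any of the 3 genes, which was not tested, and the value of IFI30 is not evidence that it was unchanged.

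Both galectin genes fell. LGALS9, a secreted galectin with regulatory and antiviral action, ranged from 187 to 238 CPM with miR-122-5p (median 203) and from 428 to 491 CPM with the control mimic (median 455; -1.14 ± 0.07, adjusted p = 1.40e-11). Its transcript shares 55.5% of its length with the copies LGALS9B and LGALS9C and the antisense gene AC015688.4. The copies held at most 95 and 12 counts a library, and LGALS9 held 6339 to 18999. Reads that match several of these genes may have been assigned to none, which was not tested. LGALS3BP, a secreted glycoprotein that binds galectins, ranged from 141 to 181 CPM with miR-122-5p (median 159) and from 296 to 369 CPM with the control mimic (median 327; -1.05 ± 0.08, adjusted p = 5.26e-10).

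In the last role, ETV7, an ETS-family repressor of transcription, ranged from 6.08 to 14.2 CPM with miR-122-5p (median 7.95) and from 74.9 to 97.7 CPM with the control mimic (median 81.4; -3.24 ± 0.15, adjusted p = 1.38e-13). The highest miR-122-5p value was that of library 4. TRANK1, a large ankyrin repeat protein, fell by 1.41 ± 0.11. XAF1, which counters the apoptosis inhibitor XIAP, fell by 0.92 ± 0.09. The gene PRAL on the other strand overlaps 38.3% of the XAF1 exons, with 2 to 47 counts a library against 323 to 890 for XAF1. Reads in the shared part may have been assigned to neither gene, which was not tested.

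Several of these genes are neighbours, which the choice of genes did not use. Within 100 kb of each other lay 8 pairs, and the log2 ratio of the 2 genes in each library was set against the group (exact permutation, two-sided, p-values adjusted over the 8 pairs). RSAD2 and CMPK2 lie on opposite strands of chromosome 2, and their annotated 5′ ends overlap. RSAD2 was above CMPK2 in control libraries (log2 ratio 1.04 ± 0.0833, SD, n = 6) and below it with miR-122-5p (-0.55 ± 0.180), a difference of -1.59 (exact p = 0.00216, adjusted p = 0.00433; -1.64 to -1.55 with any library left out). IFI44 and IFI44L, 3.65 kb apart on chromosome 1, also fell unequally: the log2 ratio of IFI44 to IFI44L was 1.53 ± 0.0564 with the control mimic and 2.57 ± 0.202 with miR-122-5p (adjusted exact p = 0.00433).

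MX1 and MX2 differed by a little, with a log2 ratio that was higher by 0.25 with miR-122-5p (adjusted exact p = 0.00433). The ratios of IFITM1 and IFITM2 to IFITM3 were lower by 0.35 and 0.42 (adjusted exact p = 0.0173 and 0.00433), with the shared sequence named above. No difference was called for DDX60 against DDX60L (0.10, adjusted exact p = 0.0606), IFITM1 against IFITM2 (0.07, adjusted exact p = 0.738) or SP110 against SP140 (-0.14, adjusted exact p = 0.738). These ratios say nothing of which gene of a pair changed.

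The median fall of the genes with and without the promoter match was similar, and the difference was not tested. The 19 genes with the GAAA repeat had a median log2 fold change of -1.30 (-3.40 to -0.24) and the 18 without it one of -1.21 (-3.18 to -0.10). Among all tested genes with a promoter window the median was -0.32 for the 446 with the motif and 0.01 for those without it. CD38 and GMPR had no match in these windows, which says only that these letters are not there.

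Most of the 43 genes had no site for miR-122-5p. Of the 43 genes 0 had an 8mer site in their longest annotated 3′ untranslated region, 2 had a 7mer-m8, 10 a 7mer-A1, 2 only a 6mer and 29 none. Among the 12920 tested genes with such a region the shares were 3.49%, 6.28%, 15.9%, 14.1% and 60.2%, in the same order, against 0%, 4.65%, 23.3%, 4.65% and 67.4% here. The 29 genes with no site had a median log2 fold change of -1.35, with ETV7 the lowest of them. The median was -1.11 for the 10 with a 7mer-A1, -1.40 for the 2 with a 7mer-m8 and -1.54 for the 2 with only a 6mer. The 2 sites of class 7mer-m8, which pair with the whole seed, are those of CMPK2 and SP100, printed here as DNA from the GENCODE 29 transcripts with the site in capitals.
CMPK2: gcccaaggACACTCCtgcagagc
SP100: ataagaccACACTCCtatgacca

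CMPK2 fell by 1.82, more than the median of the group, and SP100 fell by 0.98, less than that median. RSAD2, the neighbour of CMPK2, whose only site is a 7mer-A1, had a log2 fold change of -3.40. The part of these sites in the falls was not tested.

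The libraries of a group did not carry the falls equally. The median over the 43 genes of each library's log2(CPM + 0.5), taken from the mean of all 12, was -0.80 in miR-122-5p library 2, the lowest, and -0.50 in library 4, the highest of that group, while control libraries lay between 0.57 and 0.72. Library 2 had the lowest level of its group for 19 of the 43 genes and library 4 the highest for 18. For IFNB1, the gene of interferon beta, library 2 held 6.59 CPM and library 4 held 6.58 CPM. For IFNL1, a type III interferon, library 4 held the most, 6.45 CPM, and library 2 held 3.30 CPM. A relation across libraries between these interferons and the 43 genes was not tested. Among the control libraries, library 6 was lowest in the median (0.57), in IFNB1 (90.2 CPM) and in IFNL1 (42.6 CPM). Library 1 was highest in IFNB1 (141 CPM) and in the median, though barely (0.720, against 0.715 in library 4). For IFNL1 library 1 held 55.4 CPM, and library 2 held the most of the control libraries, 63.4 CPM.

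**Figure D4:**
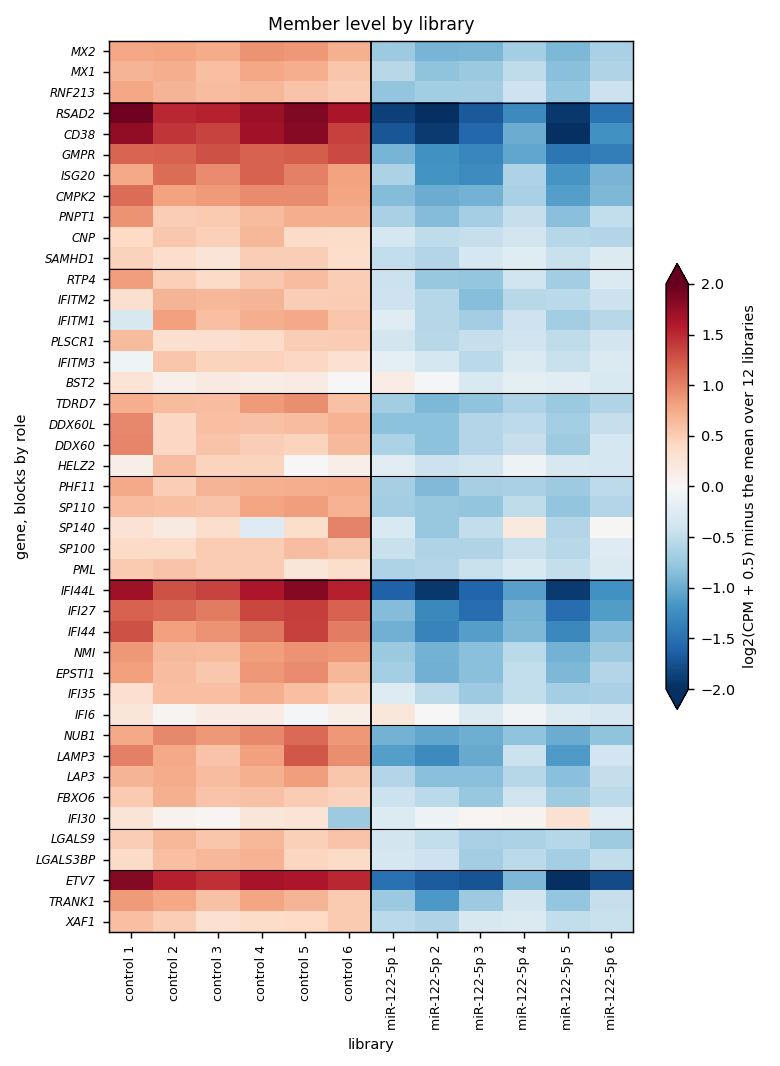
Level of each of the 43 genes (rows, in blocks by role) in each library (columns), as log2(CPM + 0.5) minus the mean over the 12 libraries; red is above and blue below that mean, and the scale ends at -2 and 2. The 6 control libraries are red and the 6 miR-122-5p libraries blue for nearly every row; IFI6, BST2, IFI30 and SP140 are pale or mixed, and IFITM1 is blue in control library 1.

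Other genes of the pathway were taken from lists chosen by function. Their counts stand beside 26.2% lower and 24.3% higher over all 15471 tested genes. With GC content and length offsets 3673 genes were lower and 3558 higher, and with the GC slope covariate 1887 and 1118. Of 8 interferon ligands 4 were tested and called lower, but IFNL2 and IFNL3 passed the low-count filter only through the control group, with 38 to 75 and 88 to 122 counts there against at most 2 and 0 with miR-122-5p, so their falls are no support. IFNB1 averaged 7.68 ± 1.25 CPM (SD, n = 6) with miR-122-5p and 115.1 ± 17.6 CPM with the control mimic (log2 fold change -3.90 ± 0.12). Of 8 tested receptor and kinase genes 4 were lower and 1 higher (median -0.20). With GC content and length offsets 2 were lower and 0 higher, and with the GC slope covariate 1 and 0 (median 0.01). The kinase JAK2, which is not among the receptor's kinases named above, fell by 2.26 ± 0.13. JAK1 fell by 0.33 ± 0.07. The receptor chain IFNAR1 fell by 0.28 ± 0.08, but was not called with the offsets (-0.03, adjusted p = 0.744). The receptor chain IFNAR2 was not called (-0.15 ± 0.16, adjusted p = 0.484). It had 102 to 217 counts a library, against 2889 to 5084 for IFNAR1, and whether it lost reads to overlapping genes was not tested. The kinase TYK2 was called higher (0.35 ± 0.08), but not with GC content and length offsets (0.04, adjusted p = 0.580).

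Of 9 genes of ISGF3 and the interferon regulatory factors 5 were lower and 1 higher (median -0.34), and with GC content and length offsets 5 and 0 (median -0.77). STAT2 fell by 0.90 ± 0.06, while IRF9 was not called (0.26 ± 0.11, adjusted p = 0.0505). IRF9 had only 268 to 437 counts a library, and whether it lost reads to overlapping genes was not tested. IRF7, which amplifies interferon production, fell by 0.34 ± 0.09, and by 0.90 with GC content and length offsets. Of 6 feedback inhibitors 3 were lower and 1 higher, and with GC content and length offsets 5 and 0. Among them USP18, which shuts off the interferon receptor, had a log2 fold change of -1.30 ± 0.08. All 28 genes of other classical interferon-stimulated families were lower (median -1.44), close to the median of the 43. Of 19 tested NF-kB target genes 5 were lower and 5 higher (median -0.0025), near the shares over all tested genes (26.2% and 24.3%). The called ones ran from -0.52 (PTGS2) to 0.52 (ICAM1). With the offsets 7 were lower and 5 higher, and with the covariate 2 and 2. No result about NF-kB targets is drawn from these counts.

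Because libraries differed in their GC slope, the falls were set against transcript GC content. The 21 genes with a GC content below the median of all tested genes (48.9%) had a median log2 fold change of -1.39 and the other 22 one of -1.12. With GC content and length offsets these medians were -1.20 and -1.33, and with the GC slope covariate -1.21 and -1.33. The offsets moved 4 genes by over 1.5 times, IFI6, BST2, HELZ2 and the uncalled IFI30, each further below 0. The covariate moved 7 genes by that much, with IFITM1, IFITM3, HELZ2 and IFI6 lower and DDX60, DDX60L and SP140 nearer 0. With the offsets 42 of the 43 genes were called lower, and with the covariate 39.

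**Figure D5:**
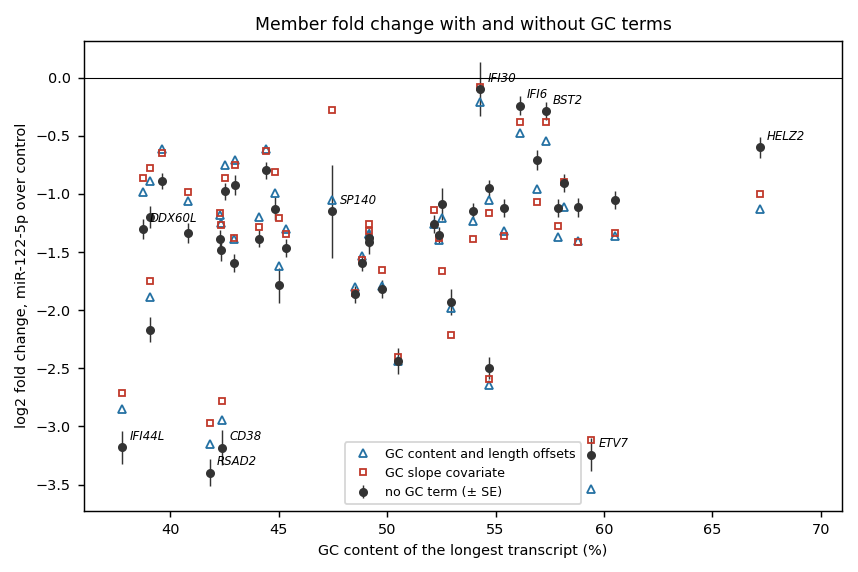
Log2 fold change of the 43 genes against the GC content of the longest transcript (%), with no GC term (filled circles, bars SE), with GC content and length offsets (triangles) and with the GC slope covariate (squares). Most GC-poor genes move towards 0 and most GC-rich genes, HELZ2 among them, move away from it with the GC terms, and no gene crosses 0.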

How the data were processed

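Deposited values were whole-number counts of reads per gene that the authors had not normalized. For alignment and counting the submitters' processing notes list HISAT2 (2.0.5) and featureCounts (1.5.0-p3), and as build hg38. Annotation and strand handling: not given in the sources used here, so overlapping genes are uncertain. Control columns were matched to samples by name and number. Symbols, positions, lengths and untranslated regions came from GENCODE 29, which held all 58735 identifiers.

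In R 4.3.3, genes were filtered with filterByExpr (15471 kept), scaled with TMM and compared with edgeR 4.0.16 (quasi-likelihood test, Benjamini-Hochberg, threshold 0.05). CPM values use TMM-scaled totals; the standard error is the log2 fold change divided by the root of F. The test was checked on simulated data. Alternatives were DESeq2 1.42.0, limma-voom (limma 3.58.1), other scalings and filters, the replicate number as a block, GC terms (splines with 4 degrees of freedom for the offsets), and libraries left out.

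Genes and lists were chosen with earlier results of these data known. Values by library are given, by rule, for the gene of largest change and of highest level per length in each role and any gene not called; BST2 and IFITM1 were added after their values were seen. Shared sequence is a match of at least 95% identity over at least 100 bases. Libraries of 29473750 to 39468157 counts gave each of the 43 genes but SP140 at least 10 counts in every library.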

Additional observations from a re-analysis of the deposited data

Results flagged for a closer look

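In each group of 6 the highest and lowest library of every gene was compared with the rest by Dixon's test, 86 groups in all; chance alone flags about 1 in 20 groups, and 3 were found. IFITM1 held 131 CPM in control library 1, where the other control libraries held 242 to 292 CPM. PHF11 held 55.9 CPM in control library 2, below 63.6 to 67.7 CPM in the others and still above every miR-122-5p library. IFI30 held 0.875 CPM in control library 6, below 1.83 to 2.25 CPM in the others.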

How the results depend on the processing

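Over 22 alternative settings and 1 more chosen after seeing the data, 0 of the 43 genes were called higher. The added setting left out 11 genes that share 10% or more of their exons or transcript with other genes, IFI30 among them; all the remaining 32 were called lower, with a median log2 fold change of -1.40. With any 1 library left out, 40 to 42 genes were called lower, 38 to 40 did not overlap, and the median was -1.37 to -1.23. Without control libraries 1 and 6 together, 40 were called lower (median -1.26). Of the values of single genes under the alternatives 934 kept their direction and call, 11 lost the call and 0 reversed. The 11 belong to BST2, IFI6 and SP140, and besides those given above they include SP140 (-0.84, adjusted p = 0.118) and IFI6 (-0.20, adjusted p = 0.0623) without control libraries 1 and 6. Over all tested genes the GC slope covariate left 1887 lower and 1118 higher, against 4054 and 3756 without it; 39 of the 43 genes were among those lower. The numbers of the replicates did not pair the libraries (same-number correlations -0.105 to 0.0660, so the libraries share only a number); with the replicate block 42 genes were called lower (median -1.30), and 3885 lower and 3702 higher over all tested genes. Not every library correlated best with the library of its own number. SP140 was not tested with at least 1 CPM in 6 libraries, which left 41 called lower. Few counts limit SP140 and IFI30.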
